A study of Homo sapiens with 12 samples.

Results

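Epicardial and mesothelial genes were followed across the cardiac differentiation of human pluripotent cells. The set held 10 of the 61806 genes in the count table, each matched by its gene symbol. They were the transcription factors WT1, TCF21, TBX18 and BNC1, the membrane proteins UPK3B, UPK1B, MSLN and LRRN4, and the secreted proteins SEMA3D and ITLN1. The libraries came from H1, an established human embryonic stem cell line carrying no engineered allele. All cells received the WNT activator CHIR99021 on Day 0 and insulin on Day 1, and bulk RNA was sequenced on Day 12 and Day 16. The study asked how replating mesendoderm progenitors on Day 2 changed the fates that they later took, the epicardium among them.

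The 6 groups held 2 libraries each. NP-IWP2 cells were left in their wells without passaging and were given IWP2, a small molecule that blocks WNT secretion, from Day 2 to Day 4. P-DF cells, labelled Pass-ctrl by the submitters, were passaged on Day 2 and went on in DF medium with no WNT inhibitor. P-IWP2 cells had the same Day 2 replating together with the inhibitor. The methods describe passaging as detachment in EDTA and replating into new coated wells at a chosen split ratio, and the ROCK inhibitor Y27632 was given with it, so these parts of the step cannot be told apart. The P-IWP2 and NP-IWP2 groups differed by that whole step, whereas P-DF and NP-IWP2 differed by both passaging and the inhibitor, whose parts cannot be told apart in that comparison. No static group without IWP2 was analysed here. The labels did not say whether the 2 libraries of a group were separate cultures, so the p-values measure the spread between these libraries, which may be technical.

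The epicardium is the mesothelial sheet that covers the heart. It grows out of the proepicardium, a transient cell cluster near the venous pole, and part of it loses its epithelial character and gives rise to cardiac fibroblasts and to the smooth muscle of the coronary vessels. WT1, TCF21 and TBX18 are the transcription factors most often used to mark it, and BNC1 encodes basonuclin, a zinc-finger factor of epithelia including mesothelium. UPK3B, MSLN, LRRN4 and ITLN1 are known from mesothelium more widely, since the linings of the pleura and the abdominal cavity are built alike. WT1 is also abundant in podocytes and the gonad, so no member on its own identifies the epicardium.

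The libraries held between 14885589 and 19176239 counts in genes. Levels are given as FPKM (fragments scaled to exon length and to library size), which allows genes to be compared per length, and tests used the raw counts. Markers of cardiomyocytes were present in all 12 libraries. TNNT2, the cardiac troponin T gene, ranged from 74.8 to 145 FPKM, and NKX2-5, a cardiac transcription factor, from 55.3 to 199 FPKM. One library stood apart from its partner. The 2 Day 12 P-IWP2 libraries, replicates 5 and 6, differed from each other by a chi-square of 119.9 per degree of freedom over their genes, against 3.497 to 26.68 in the other 5 pairs. Results that rest on replicate 5 are therefore given with and without it. In bulk RNA, fewer cells of a type and less RNA per cell cannot be told apart.

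Promoters are shown for the 4 transcription factors, whose levels moved together, and for SEMA3D, whose level did not follow them. The RefSeq table on GRCh38.p14 held 8 of the 10 members, and MSLN and LRRN4 were not among them. Each line gives the 250 bases before a transcription start, read along the gene's strand, with in capitals the short motifs that were found on either strand.
WT1: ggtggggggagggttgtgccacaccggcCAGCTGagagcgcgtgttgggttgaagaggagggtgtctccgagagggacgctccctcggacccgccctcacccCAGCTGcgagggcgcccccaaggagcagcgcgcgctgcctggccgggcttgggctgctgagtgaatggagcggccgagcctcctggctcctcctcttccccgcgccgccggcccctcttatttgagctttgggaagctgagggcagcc
TCF21: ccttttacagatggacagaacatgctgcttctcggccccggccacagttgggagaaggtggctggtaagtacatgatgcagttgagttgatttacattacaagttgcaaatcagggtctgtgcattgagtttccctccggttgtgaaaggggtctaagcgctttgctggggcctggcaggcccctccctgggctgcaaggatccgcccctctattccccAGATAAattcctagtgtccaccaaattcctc
TBX18: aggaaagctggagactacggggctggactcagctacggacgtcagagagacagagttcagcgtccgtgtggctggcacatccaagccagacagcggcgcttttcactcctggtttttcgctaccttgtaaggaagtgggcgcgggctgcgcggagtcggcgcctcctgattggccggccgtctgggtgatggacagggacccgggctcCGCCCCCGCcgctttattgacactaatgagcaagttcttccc
BNC1: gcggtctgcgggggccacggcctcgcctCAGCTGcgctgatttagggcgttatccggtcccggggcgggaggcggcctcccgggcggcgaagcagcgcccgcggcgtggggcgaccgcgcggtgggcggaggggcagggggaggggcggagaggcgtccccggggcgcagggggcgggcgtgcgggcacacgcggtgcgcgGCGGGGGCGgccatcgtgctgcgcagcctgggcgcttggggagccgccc
SEMA3D: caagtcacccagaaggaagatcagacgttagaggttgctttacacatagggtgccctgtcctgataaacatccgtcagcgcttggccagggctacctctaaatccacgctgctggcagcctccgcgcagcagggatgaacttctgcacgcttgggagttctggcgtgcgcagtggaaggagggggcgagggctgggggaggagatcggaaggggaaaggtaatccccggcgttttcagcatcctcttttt
The WT1 window lay at chr11:32435540-32435789 on the minus strand, before the first of several starts listed for the gene, and its downstream end falls inside the longer gene model of the GENCODE annotation. The TCF21 window was chr6:133888863-133889112 on the plus strand. The TBX18, BNC1 and SEMA3D windows were chr6:84764599-84764848, chr15:83284665-83284914 and chr7:85187057-85187306, all on the minus strand.

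The search covered 5 motifs on both strands, and none overlapped another in these windows. The E-box motif CAGCTG was present in the WT1 window in 2 copies and in the BNC1 window in 1, against 14% of the 35116 promoters of the table. The GC-rich motif GCGGGGGCG, of the kind bound by EGR1 and WT1, was in the BNC1 window and, on the opposite strand, in the TBX18 window, against 4.72% of promoters. The GATA motif AGATAA was in the TCF21 window and in that of ITLN1, against 9.17%. The TEAD motif CATTCC was in 11.9% of promoters and, among the first windows of the members, in that of UPK1B. The T-box half-site GGTGTGA was in 2.76% of promoters and in no member's window, and the SEMA3D and UPK3B windows held none of the 5 motifs. These are matches of letters and not measured binding sites.

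WT1, TCF21 and TBX18 were present in the static cells on both days and were nearly absent from 7 of the 8 passaged libraries. The exception was replicate 5 of Day 12 P-IWP2. WT1, a zinc-finger factor needed for the epicardium to form, was read on Day 12 at 2.36 and 3.58 FPKM in NP-IWP2, at 0 and 0.01 in P-DF, and at 6.36 and 0.01 in P-IWP2 replicates 5 and 6. On Day 16 it was at 4.62 and 6.14 FPKM in NP-IWP2, at 0.04 and 0.08 in P-DF, and at 0.07 and 0.08 in P-IWP2. Every static library thus lay above every passaged library apart from replicate 5, which was the highest of all 12.

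TCF21, a basic helix-loop-helix factor required for the cardiac fibroblast lineage, was likewise near 0 in the same 7 passaged libraries. It stood on Day 12 at 2.41 and 3.92 FPKM in NP-IWP2, at 0.05 and 0.02 in P-DF, and at 21.3 and 0.02 in P-IWP2 replicates 5 and 6. On Day 16 the static libraries had 12.1 and 21.1 FPKM, the P-DF libraries 0.02 and 0, and both P-IWP2 libraries 0. No read was counted in P-IWP2 on Day 16, against 2094 in NP-IWP2, which was at least 740-fold lower when 3 counts over the group are taken as the limit.

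TBX18, a T-box factor of the proepicardium and sinus horns, was the most abundant of the 10 genes in static cells. Its Day 12 levels were 22.2 and 38.9 FPKM in NP-IWP2, 0.02 and 0.02 in P-DF, and 106 and 0.08 in P-IWP2 replicates 5 and 6. On Day 16 they were 28.7 and 44.8 FPKM in NP-IWP2, 0.05 and 0.05 in P-DF, and 0.01 and 0.01 in P-IWP2. The 2 P-IWP2 libraries of Day 16 held 2 TBX18 counts together and the NP-IWP2 libraries 10969, a ratio of 0.000172 with an exact 95% counting interval of 2.08e-05 to 0.000622.

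BNC1 was less completely lost. It was at 11.7 and 13.0 FPKM in Day 12 NP-IWP2 and at 20.7 and 24.0 on Day 16. In P-DF it was at 0.33 and 0.15 on Day 12 and at 0.70 and 0.54 on Day 16. In P-IWP2 it was at 5.91 and 0.48 in replicates 5 and 6 of Day 12, and at 0.34 and 0.16 on Day 16. Unlike the other 3 factors, BNC1 in replicate 5 lay below both static libraries of the same day, and well above the other passaged libraries.

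**Figure D1:**
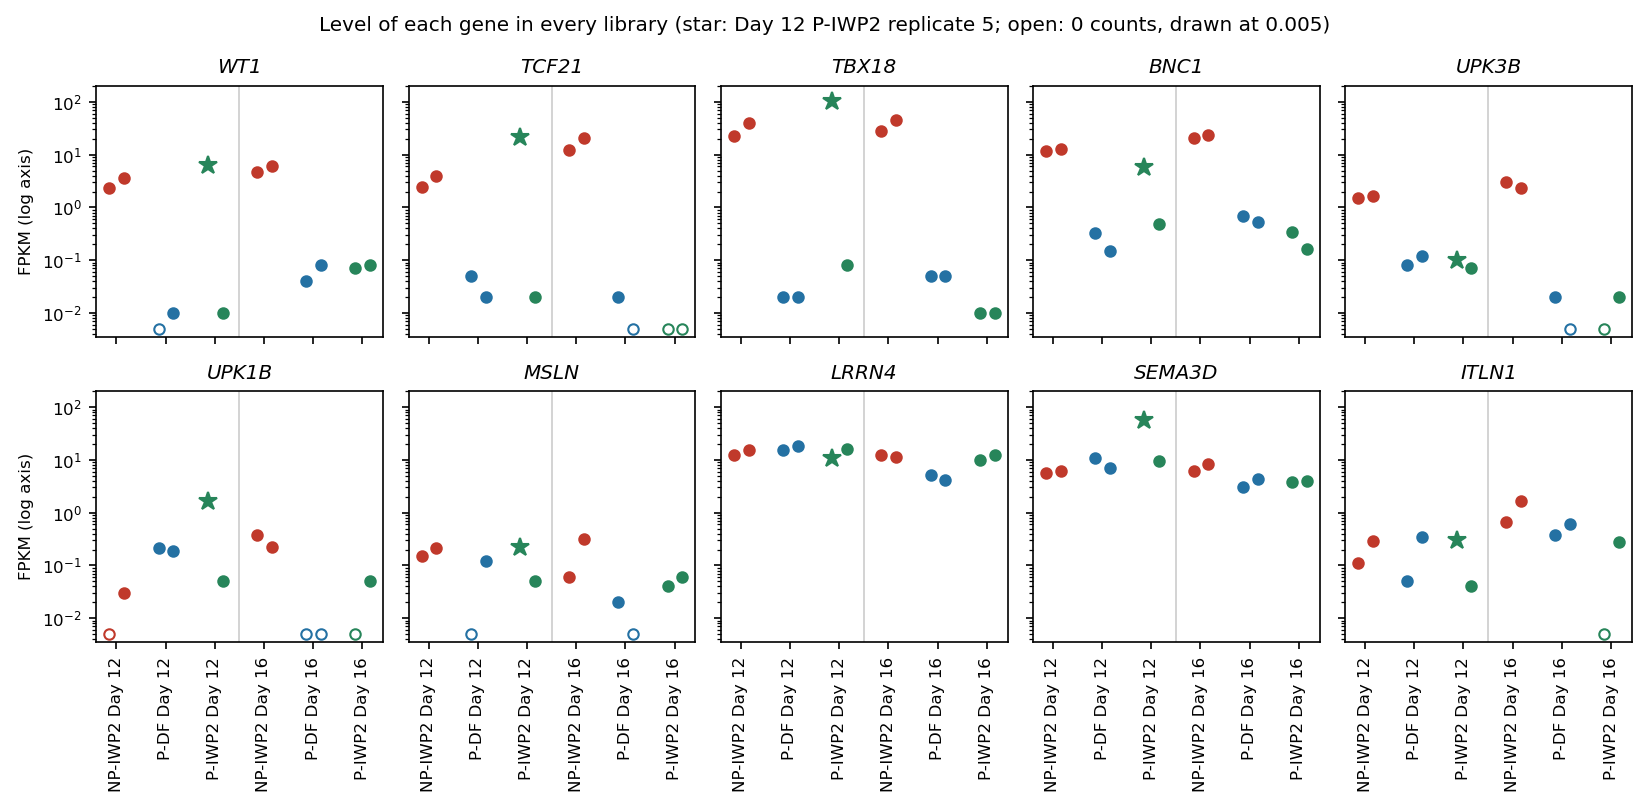
FPKM of the 10 genes (log axis) in each of the 12 libraries, coloured by treatment (red NP-IWP2, blue P-DF, green P-IWP2) and split by day, with the star for Day 12 P-IWP2 replicate 5 and open points for 0. WT1, TCF21, TBX18 and BNC1 lie above 2 FPKM in the 4 static libraries and below 1 FPKM in 7 passaged ones, while LRRN4 and SEMA3D lie above 3 FPKM in all 12.

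UPK3B, a uroplakin of the mesothelial surface, was low in every passaged library, replicate 5 included. It was at 1.49 and 1.64 FPKM in Day 12 NP-IWP2, at 0.08 and 0.12 in P-DF, and at 0.10 and 0.07 in P-IWP2. On Day 16 it was at 3.05 and 2.33 FPKM in NP-IWP2, at 0.02 and 0 in P-DF, and at 0 and 0.02 in P-IWP2. Replicate 5 held 4 UPK3B counts and replicate 6 held 3, a ratio of 1.41 (95% counting interval 0.239 to 9.63), whereas for WT1 the counts were 809 and 1.

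UPK1B, a tetraspanin uroplakin, was near its limit of counting in most libraries. Its counts on Day 12 were 0 and 1 in NP-IWP2, 7 and 7 in P-DF, and 60 and 2 in P-IWP2 replicates 5 and 6. On Day 16 they were 16 and 8 in NP-IWP2, 0 and 0 in P-DF, and 0 and 2 in P-IWP2. The static libraries were thus the lowest on Day 12 and the highest on Day 16. Replicate 5, at 1.70 FPKM, had the highest level of all 12 libraries.

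MSLN, the gene of the surface glycoprotein mesothelin, had at most 13 counts in any library and was the one member that did not pass the filter on low counts. Its FPKM were 0.15 and 0.21 in Day 12 NP-IWP2, 0 and 0.12 in P-DF and 0.22 and 0.05 in P-IWP2. On Day 16 they were 0.06 and 0.31 in NP-IWP2, 0.02 and 0 in P-DF and 0.04 and 0.06 in P-IWP2. The P-DF libraries were lower than the static ones on both days, and the P-IWP2 and static libraries overlapped on both.

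LRRN4, a leucine-rich repeat membrane protein, was expressed in every library and did not follow the transcription factors. It was at 12.6 and 15.1 FPKM in Day 12 NP-IWP2, at 15.5 and 18.3 in P-DF, and at 10.7 and 16.2 in P-IWP2 replicates 5 and 6. On Day 16 it was at 12.3 and 11.5 FPKM in NP-IWP2, at 5.26 and 4.15 in P-DF, and at 9.81 and 12.4 in P-IWP2. The P-DF libraries of Day 16 were the lowest of all, and the P-IWP2 libraries overlapped the static ones on both days.

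SEMA3D, a secreted semaphorin made by proepicardial cells, was likewise present in all libraries. It was at 5.72 and 6.29 FPKM in Day 12 NP-IWP2, at 10.9 and 7.12 in P-DF, and at 57.1 and 9.60 in P-IWP2 replicates 5 and 6. On Day 16 it was at 6.21 and 8.38 FPKM in NP-IWP2, at 3.05 and 4.29 in P-DF, and at 3.84 and 3.95 in P-IWP2. All passaged libraries were above the static ones on Day 12 and below them on Day 16.

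ITLN1, the gene of the lectin intelectin 1, had between 0 and 39 counts. On Day 12 it was at 0.11 and 0.29 FPKM in NP-IWP2, at 0.05 and 0.34 in P-DF and at 0.30 and 0.04 in P-IWP2, with all 3 groups overlapping. On Day 16 it was at 0.67 and 1.63 FPKM in NP-IWP2, at 0.37 and 0.60 in P-DF and at 0 and 0.28 in P-IWP2, with the static libraries above the rest. The ratio of summed counts of P-IWP2 to NP-IWP2 on Day 16 was 0.130 (95% counting interval 0.0537 to 0.274), an interval that covers counting error only.

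The order of the mean levels differed between static and passaged cells. In Day 16 NP-IWP2 the order was TBX18 (36.8 ± 11.4 FPKM, SD, n = 2), BNC1 (22.4 ± 2.33), TCF21 (16.6 ± 6.40), LRRN4 (11.9 ± 0.601), SEMA3D (7.30 ± 1.53), WT1 (5.38 ± 1.07), UPK3B (2.69 ± 0.509), ITLN1 (1.15 ± 0.679), UPK1B (0.295 ± 0.106) and MSLN (0.185 ± 0.177). The libraries of TBX18 and BNC1 did not overlap in this order, whereas those of TCF21 overlapped with BNC1 and with LRRN4, those of UPK1B overlapped with MSLN, and the remaining neighbours did not overlap. In P-DF and P-IWP2 of Day 16, LRRN4 (4.71 ± 0.785 and 11.1 ± 1.83) and SEMA3D (3.67 ± 0.877 and 3.90 ± 0.0778) came first and no other member reached 1 FPKM. LRRN4 and SEMA3D overlapped in P-DF.

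Against the static cells on Day 12, 2 of the 9 members tested were called in P-DF by edgeR's quasi-likelihood test at a Benjamini-Hochberg adjusted p under 0.05, and both were lower. Over all 19505 genes tested, 4.01% were called in either direction. BNC1 fell by 5.59 on the log2 scale (SE 0.939, adjusted p = 0.0166) and UPK3B fell by 3.83 (SE 0.513, adjusted p = 0.00626). TBX18 had a log2 fold change of -10.26 ± 2.62 (SE, adjusted p = 0.0632), WT1 one of -9.14 ± 2.42 (adjusted p = 0.0694) and TCF21 one of -6.31 ± 2.35 (adjusted p = 0.172). The WT1 value rests on 1 count in P-DF against 818 in NP-IWP2, a ratio of 0.00136 (95% counting interval 3.43e-05 to 0.00758).

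The Day 12 calls moved with single libraries. In this fit the spread of a gene is shared over all 12 libraries, and for WT1, TCF21 and TBX18 the 2 Day 12 P-IWP2 libraries were far apart. Without replicate 5, 7 of 10 members were called in P-DF on Day 12, where 21.9% of 20518 genes were called. WT1 (-9.14 ± 0.495, adjusted p = 4.94e-08), TCF21 (-6.32 ± 0.543), TBX18 (-10.27 ± 0.410), BNC1 and UPK3B were lower. UPK1B (adjusted p = 0.0439, on 14 counts against 1) and SEMA3D (0.67 ± 0.198, adjusted p = 0.0282) were higher. Without replicate 6 the same 7 members were called, where 21.5% of genes were. Without either Day 12 NP-IWP2 library 1 was called, UPK3B, where 0.490% to 0.637% of all genes were, and without either Day 12 P-DF library 0 were, where 0.400% to 0.550% were. Calls thus became fewer over all genes and not in the members alone.

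Day 12 P-IWP2 against NP-IWP2, the comparison that differed by the passaging step, gave 1 called member with all libraries, and 1.66% of all genes were called. It was UPK3B, which fell by 4.18 (SE 0.523, adjusted p = 0.00584). WT1, TCF21 and TBX18 had log2 fold changes of -0.02 ± 1.23, 1.63 ± 1.41 and 0.67 ± 1.50, each a mean of 2 libraries on opposite sides of the static cells. Without replicate 5, 6 members were called, where 15.0% of all genes were. WT1 (-8.37 ± 0.612), TCF21 (-7.32 ± 0.807), TBX18 (-8.53 ± 0.480), BNC1 (-4.59 ± 0.301) and UPK3B (-4.32 ± 0.649) were lower, and SEMA3D was higher (0.77 ± 0.235, adjusted p = 0.0441).

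Without replicate 6 instead, replicate 5 alone stood for P-IWP2 on Day 12 and 7 members were called, where 14.3% of all genes were. WT1 was then 0.96 ± 0.233 above the static cells on the log2 scale, TCF21 2.61 ± 0.288, TBX18 1.65 ± 0.241, and SEMA3D 3.10 ± 0.226. UPK1B was called higher on 60 counts against 1 in the 2 static libraries. BNC1 was at -1.21 ± 0.216 and UPK3B at -4.07 ± 0.613. In both of these fits the lone library was assumed to vary like those of the other groups. The direction for the 3 main epicardial factors in P-IWP2 on Day 12 thus depended on which of its 2 libraries was kept, and that of BNC1 and UPK3B did not.

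On Day 16 the static and passaged libraries were apart for more members. In P-DF, 6 of 9 members tested were called, all lower, against 15.3% of all genes. The log2 fold changes were -6.29 ± 1.72 for WT1 (SE, adjusted p = 0.0385), -10.49 ± 2.70 for TCF21 (adjusted p = 0.0353) and -9.23 ± 2.39 for TBX18 (adjusted p = 0.0316). They were -4.94 ± 0.860 for BNC1 (adjusted p = 0.00648), -7.37 ± 0.679 for UPK3B (adjusted p = 0.00035) and -1.11 ± 0.265 for LRRN4 (adjusted p = 0.0234). The TCF21 and UPK3B values each rest on 1 count in P-DF. The ratio of counts was 0.000492 for TCF21 (95% counting interval 1.25e-05 to 0.00274) and 0.00421 for UPK3B (0.000106 to 0.0237).

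In P-IWP2 on Day 16, 5 members were called, all lower, against 17.1% of all genes. WT1 was at -5.85 ± 1.65 (adjusted p = 0.0399), TBX18 at -12.09 ± 2.94 (adjusted p = 0.0237), BNC1 at -6.22 ± 0.939 (adjusted p = 0.00351) and UPK3B at -7.44 ± 0.677 (adjusted p = 0.00038) on the log2 scale. TCF21, at 0 counts in P-IWP2, was the other call (adjusted p = 0.0303). LRRN4 had a log2 fold change of 0.18 ± 0.259 (adjusted p = 0.658).

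Day 16 calls also changed with single libraries. Without replicate 5 of Day 12, 8 members were called lower in P-DF, where 32.4% of genes were called, with UPK1B and SEMA3D added. In P-IWP2 it was also 8, where 34.8% of genes were called, with UPK1B, SEMA3D and ITLN1 added. For P-DF, where the share of all genes called was 8.98% to 10.9% without a Day 12 library of NP-IWP2 or P-DF, 3 members remained without any 1 library of Day 12 NP-IWP2 or Day 12 P-DF (BNC1, UPK3B and LRRN4), and 4 without either Day 16 P-IWP2 library (TCF21, BNC1, UPK3B and LRRN4), where 12.3% to 12.4% of genes were called. There were 2 without either Day 16 NP-IWP2 library (BNC1 and UPK3B, against 4.21% to 5.42% of genes) and 1 without either Day 16 P-DF library (UPK3B, against 2.59% to 3.36%). For P-IWP2, 3 remained without any 1 NP-IWP2 library of Day 12 or P-DF library of either day (TBX18, BNC1 and UPK3B, against 10.1% to 12.3% of genes), and 2 without any 1 of the 4 Day 16 NP-IWP2 and P-IWP2 libraries (BNC1 and UPK3B, against 4.21% to 7.64%). UPK3B was called lower in both Day 16 comparisons under all 17 alternatives that were run.

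**Figure D2:**
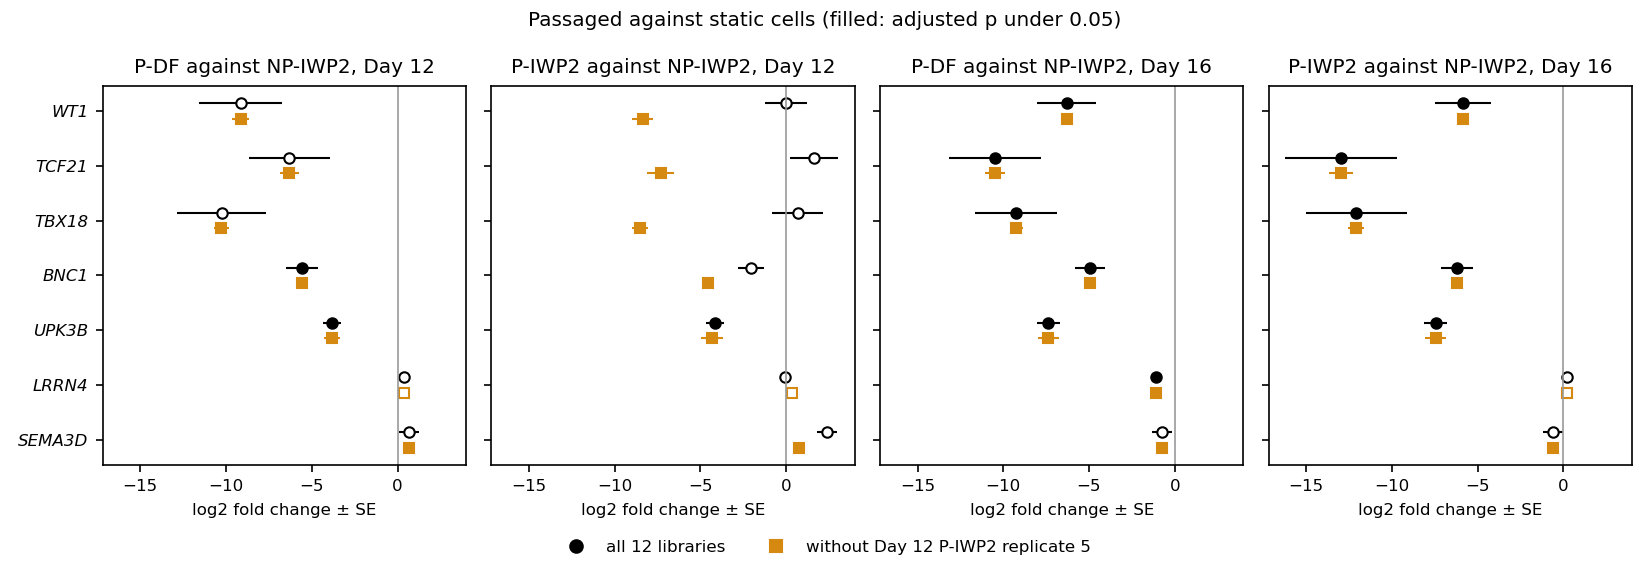
Log2 fold change ± SE of 7 members in passaged against static cells on each day, from all 12 libraries (black circles) and without Day 12 P-IWP2 replicate 5 (orange squares), with filled points for an adjusted p under 0.05. For P-IWP2 on Day 12, WT1 moves from -0.02 to -8.37 when that library is left out, while UPK3B moves only from -4.18 to -4.32.

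Taking both days in one fit with day as a term, P-DF against NP-IWP2 over 8 libraries, 5 members were called and all were lower, against 33.5% of all genes. They were TBX18 (-9.62 ± 0.308, adjusted p = 1.47e-07), TCF21 (-8.51 ± 0.523), WT1 (-6.87 ± 0.360), BNC1 (-5.19 ± 0.187) and UPK3B (-5.03 ± 0.509). This fit did not hold replicate 5. In P-IWP2 against NP-IWP2, 1 member was called, UPK3B (-5.33 ± 0.636, adjusted p = 0.00826), against 2.47% of genes. Without replicate 5 it was 5, where 24.0% of genes were called, and these were WT1 (-6.22 ± 0.355), TCF21, TBX18 (-9.98 ± 0.546), BNC1 (-5.56 ± 0.342) and UPK3B (-5.92 ± 0.561). Both comparisons used the same NP-IWP2 libraries.

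The 2 passaged treatments, which differed by IWP2, were compared over both days. By edgeR 0 of the 9 members tested were called, and 0.0% of all genes were. At an unadjusted p under 0.05 there were 2 members and 1032 of the 19505 genes, and DESeq2 called 0 members and 5 genes. On Day 16 LRRN4 was at 4.15 and 5.26 FPKM in P-DF and at 9.81 and 12.4 in P-IWP2, with no overlap. The log2 fold change over both days was 0.43 ± 0.368 (adjusted p = 0.859), and 0.76 ± 0.249 without replicate 5 (adjusted p = 0.797). Without that library edgeR again called 0 members and 0.0% of genes, with 1 member, LRRN4, and 6.19% of genes at an unadjusted p under 0.05. WT1 went from 4.11 ± 2.19 to 0.49 ± 0.619 and BNC1 from 1.14 ± 1.26 to -0.37 ± 0.478 when it was left out. Without replicate 6 instead, TCF21 alone was called, where 0.201% of genes were. WT1 counts on Day 16 were 5 and 11 in P-DF and 10 and 13 in P-IWP2, a ratio of 1.32 (95% counting interval 0.666 to 2.67).

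Between Day 12 and Day 16 in static cells, edgeR called 0 of the 9 members tested with all libraries, where 1.98% of genes were called. At an unadjusted p under 0.05 there were 3, where 19.7% of genes were, and DESeq2 called 0 members and 5.6% of genes. Without overlap between the days, WT1, TCF21, BNC1, UPK3B, UPK1B and ITLN1 were higher on Day 16 in both libraries. The share of all genes with such a separation was not counted. WT1, TCF21, BNC1 and UPK3B had log2 fold changes of 0.97 ± 1.23, 2.49 ± 1.45, 0.97 ± 0.704 and 0.90 ± 0.390. ITLN1 was at 2.59 ± 1.07, and UPK1B held 24 counts against 1. LRRN4 did not overlap and was lower on Day 16 (-0.10 ± 0.258), and TBX18 overlapped (0.37 ± 1.50). Without replicate 5 of P-IWP2, 4 members were called higher, where 17.1% of genes were called. These were TCF21 (2.49 ± 0.267, adjusted p = 0.000103), BNC1 (0.97 ± 0.165, adjusted p = 0.00177), WT1 (0.97 ± 0.206, adjusted p = 0.00682) and UPK1B (adjusted p = 0.0209).

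In P-DF, LRRN4 was the one member called between the days, falling by 1.59 (SE 0.267, adjusted p = 0.00681), against 13.6% of genes. Without replicate 5, 5 members were called, where 29.2% of genes were. LRRN4, SEMA3D (-1.03 ± 0.202) and UPK1B were lower on Day 16, and WT1 (3.82 ± 1.01) and BNC1 (1.63 ± 0.324) were higher. The WT1 difference was between 1 and 16 counts, so both days were far under the static level.

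In P-IWP2, TCF21, TBX18 (-12.38 ± 2.95), BNC1 (-3.19 ± 0.889) and SEMA3D (-2.61 ± 0.601) were called lower on Day 16, 4 members against 27.0% of genes. These rested on replicate 5. Without it 2 were called, where 23.7% of genes were: SEMA3D was lower (-0.997 ± 0.236) and WT1 was higher (3.50 ± 1.04, adjusted p = 0.028), the latter between 1 and 23 counts.

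Whether the difference between passaged and static cells changed from Day 12 to Day 16 was tested as an interaction. By edgeR 0 of the 9 members tested were called for P-DF, where 0.482% of genes were, and 0 for P-IWP2, where 1.84% were. At an unadjusted p under 0.05 there were 3 and 7 members, where 12.4% and 20.9% of genes were, and DESeq2 called 1 and 4 members and 2.57% and 7.31% of genes. LRRN4 had an edgeR adjusted p of 0.132 for P-DF. Without replicate 5, 3 members were called for P-DF (UPK1B, LRRN4 and SEMA3D) where 7.62% of genes were, and 2 for P-IWP2 (BNC1 and SEMA3D) where 7.89% were.

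Other genes known from epicardium and mesothelium were followed as a list of 16, of which 13 passed the filter. On Day 16, 6 were called lower in P-DF and 0 higher, where 15.3% of all genes were called. The median log2 fold change was -2.46 over the 13 against -0.02 over all genes. In P-IWP2, where 17.1% of all genes were called, 5 were lower (HAS1, ALDH1A2, CLDN1, RSPO1 and KRT19) and 1 was higher (PDPN). The median there was -1.53 against -0.03. A gene could pass the filter through the static libraries alone, and such a gene could hardly come out higher in passaged cells. RSPO1 was of this kind, at 3.60 and 5.66 FPKM in Day 16 NP-IWP2 and at 0 to 0.04 in the passaged libraries of that day. These calls and medians thus follow in part from the filter and from the choice of the list. The keratins KRT8, KRT18 and KRT19, which simple epithelia in general express, were the most abundant of those called in at least 1 comparison. KRT19 fell by 1.53 in P-IWP2 (SE 0.299, adjusted p = 0.00983), from 43.6 and 41.3 FPKM to 13.5 and 10.9. KRT8 was at 130 and 105 FPKM in Day 16 NP-IWP2 and at 91.2 and 147 in P-IWP2, so the groups overlapped. On Day 12, 1 of the 13 was called in P-DF and 0 in P-IWP2, where 4.01% and 1.66% of all genes were. Without replicate 5 it was 11 of 14 and 8 of 14, where 21.9% and 15.0% of all genes were. On Day 16 without that library 11 of 14 were lower in P-DF, where 32.4% of all genes were called. In P-IWP2 8 were lower and 1 was higher, where 34.8% of all genes were called.

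A further list held 11 regulators of the proepicardium and heart, among them GATA4, TBX5 and HAND2. Over all genes, 15.3% were called in P-DF and 17.1% in P-IWP2 on Day 16. On Day 12 it was 4.01% and 1.66%, and over both days 33.5% and 2.47%. Without replicate 5 of Day 12 the shares were 21.9% and 15.0% on Day 12 and 32.4% and 34.8% on Day 16. Of the 11 regulators, 1 was called lower in P-DF on Day 16 (GATA5) and 2 in P-IWP2 (TBX5 and GATA5). Their medians were -0.13 and -0.05. Over both days 6 of the 11 were called in P-DF, with MEIS1 and MEIS2 higher and HAND1, HAND2, GATA5 and NR2F1 lower, and 0 in P-IWP2. On Day 12, 0 were called in P-DF and 1 in P-IWP2 (MEIS2, higher), and without replicate 5 it was 8 (3 higher and 5 lower) and 5 (2 higher and 3 lower). TBX5, a T-box factor of the posterior heart field, fell by 1.52 in P-IWP2 (SE 0.300, adjusted p = 0.0107). Most of these genes are active in cardiomyocytes as well. Of the 10 genes tied to the epithelial-to-mesenchymal transition of the epicardium, 6 were lower in each passaged group on Day 16 and 0 higher, with medians of -2.06 and -1.91. SNAI2, a repressor of epithelial genes, fell by 3.84 in both (SE 0.736 and 0.734). PDGFRA, a receptor of fibroblast progenitors, fell by 2.51 and by 2.17 (SE 0.566 and 0.558). TGFBR1, a TGF-beta receptor, was at -1.48 and -1.58 (SE 0.211 and 0.212). Without replicate 5 of Day 12, 8 and 9 of the transition genes were lower and ZEB1 was higher in each, and of the regulators 2 were lower in P-DF and 5 in P-IWP2, where 1 was higher.

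Marker lists of other cell types also differed between static and passaged cells on Day 16, the cardiomyocyte list in the opposite direction to the members. Over all genes, 15.3% were called there in P-DF and 17.1% in P-IWP2, and 32.4% and 34.8% without replicate 5 of Day 12. The 8 mesenchymal genes summed to 1505 to 1537 FPKM in Day 16 NP-IWP2, to 50.5 to 52.7 in P-DF and to 62.0 to 72.0 in P-IWP2, with 7 and 8 of 8 called lower. COL3A1, a fibrillar collagen, was at 679 and 670 FPKM in static cells and at 0.94 to 5.23 in passaged ones on Day 16. The 9 hepatic genes summed to 692 to 841 FPKM in NP-IWP2 and to 14.1 to 20.1 in the passaged groups, with 9 of 9 lower in each, and AFP, the alpha-fetoprotein gene, was at 465 and 381 FPKM against at most 0.16. Of the 7 endothelial genes, 2 and 1 were called lower, and 7 and 5 without replicate 5 of Day 12. The 10 cardiomyocyte genes summed to 3258 to 4129 FPKM in NP-IWP2, 9166 to 10096 in P-DF and 11287 to 11349 in P-IWP2, where MYL7, an atrial myosin light chain, rose by 1.34 and 1.92 (SE 0.313 and 0.318) and MYH6, the alpha myosin heavy chain gene, was called lower. In all 4 cardiomyocyte genes were called higher in P-DF and 3 in P-IWP2, and 9 in each without replicate 5. The part of these cell types in the levels of the members was not tested.

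Among markers of podocytes, another cell type rich in WT1, PAX2 was at 0 in both Day 16 NP-IWP2 libraries and NPHS1, the nephrin gene, was at 0.42 and 0.65 FPKM. Of the 4 genes of the coelomic lining and gonad, which summed to 3.63 to 5.65 FPKM in the same libraries, AMHR2, the anti-Müllerian hormone receptor gene, made up most at 3.21 and 5.00 FPKM, EMX2 was at 0 and LHX9 at 0.37 and 0.61 FPKM. AMHR2 was present in all 12 libraries, at 0.90 to 2.00 FPKM in the passaged ones of Day 16, and was called lower there in P-IWP2 (-1.32 ± 0.336, adjusted p = 0.0282).

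**Figure D3:**
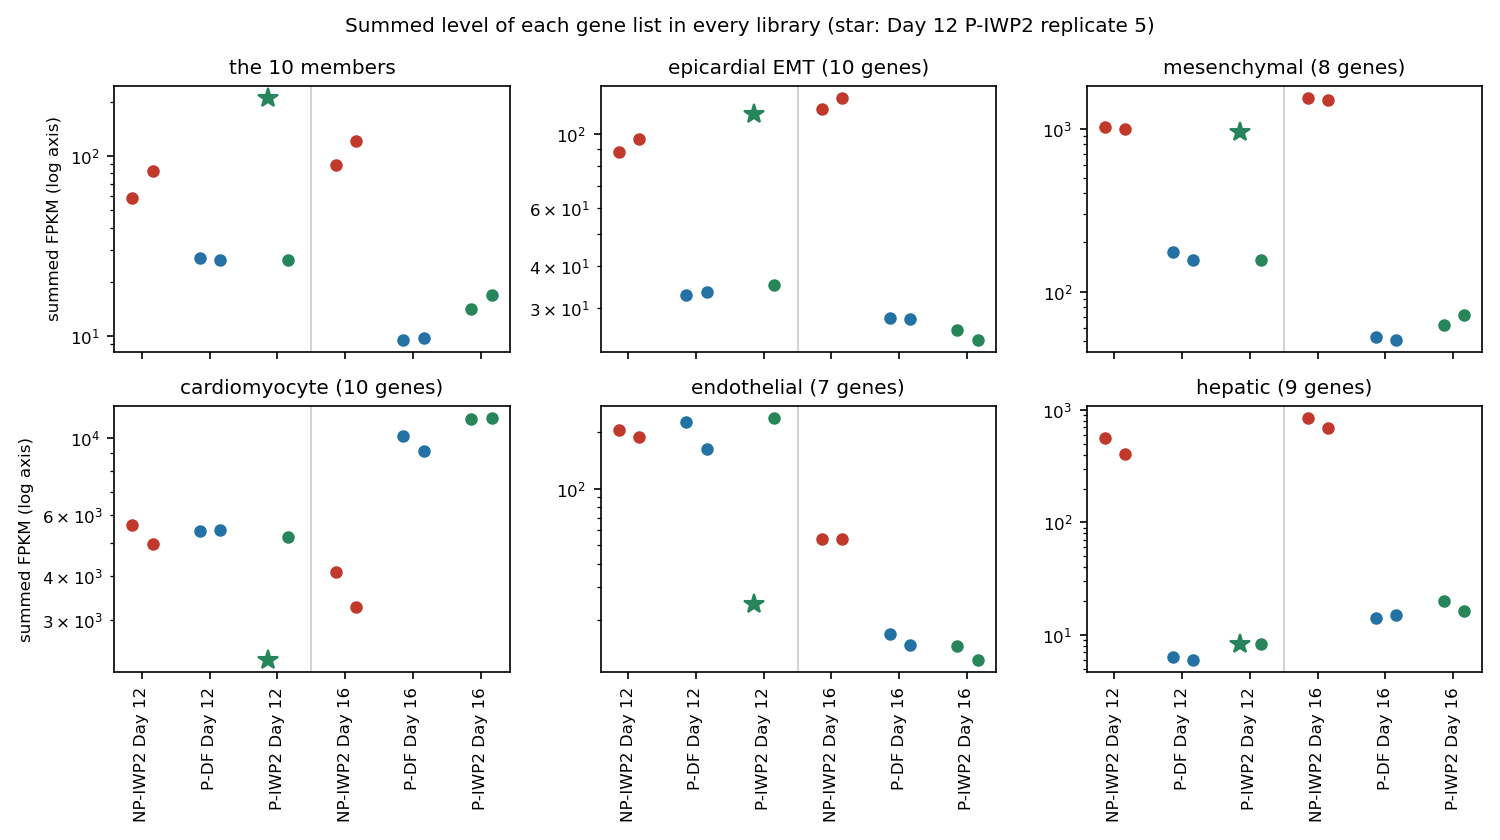
Summed FPKM (log axis) of the 10 members and of 5 marker lists in each of the 12 libraries, coloured by treatment (red NP-IWP2, blue P-DF, green P-IWP2), with the star for Day 12 P-IWP2 replicate 5. That library lies near or above the static libraries for the members, the transition genes and the mesenchymal genes, with the passaged libraries for the hepatic genes, and below all other libraries for the cardiomyocyte genes.

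Replicate 5 of Day 12 P-IWP2 did not match the static cells in all respects. The members summed to 210 FPKM in it, against 58.7 to 83.0 in Day 12 NP-IWP2 and 26.6 in replicate 6. Its mesenchymal sum was 948 FPKM, against 986 to 1017 in NP-IWP2 and 157 in replicate 6. That sum came mainly from COL3A1, FN1, COL1A1 and COL1A2, which were near their static levels. The rest of the list lay below both Day 12 NP-IWP2 libraries. LUM was at 0.55 FPKM, against 97.6 and 73.2 in NP-IWP2 and 0.32 in replicate 6, and DCN, POSTN and THY1 were also below NP-IWP2. Its hepatic sum was 8.29 FPKM and that of its partner 8.26, against 407 to 564 in NP-IWP2, and AFP was at 0.78 FPKM. The cardiomyocyte sum was 2301 FPKM, the lowest of the 12 libraries, with NKX2-5 at 55.3 FPKM against 199 in replicate 6.

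Within that library, some regulators stood far outside the range of the other 11. These were picked after their values were seen. HAND1, a factor of the extraembryonic mesoderm and left ventricle, was at 0.26 FPKM in replicate 5 and at 72.4 to 159 in the other libraries. NR2F1 and NR2F2, nuclear receptors of atrial cells and mesenchyme, were at 55.6 and 46.4 FPKM, against at most 0.97 and 4.05 elsewhere. ALDH1A1, a retinoic acid-synthesising enzyme of the epicardium among other tissues, was at 20.0 FPKM, against 8.58 and 7.48 in Day 12 NP-IWP2 and 0.09 in replicate 6.

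The genes whose pattern was most like that of WT1 were sought among 17132 genes with a symbol, by the root mean square difference of log2(CPM + 1) over the 12 libraries after each gene was centred on its own mean. The nearest 5 that were not members were PKHD1L1 (0.339), PTGIS (0.345), SFRP5 (0.367), CCN4 (0.480) and GAP43 (0.510). The spread of WT1 around its own mean was 2.40 on this scale and the median distance over these genes was 2.33. PTGIS, the prostacyclin synthase gene, was at 3.91 and 5.25 FPKM in Day 12 NP-IWP2, at 9.84 in replicate 5 and at most at 0.10 in the other passaged libraries. SFRP5, a secreted WNT antagonist, was at 20.3 to 56.6 FPKM in the static libraries, at 51.5 in replicate 5 and at 0.47 to 1.28 in the other passaged ones.

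Among the members, TCF21 was nearest to WT1 (0.562, with 7 non-member genes nearer), followed by BNC1 (0.704, 24 nearer), UPK3B (1.61, 526 nearer) and TBX18 (1.70, 680 nearer). The other 5 members lay at 2.15 to 2.40. The range of TBX18 was wider, from 0.01 to 106 FPKM, than that of WT1, from 0 to 6.36 FPKM. The 12 libraries share their groups, so these distances describe one pattern and not independent points.

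**Figure D4:**
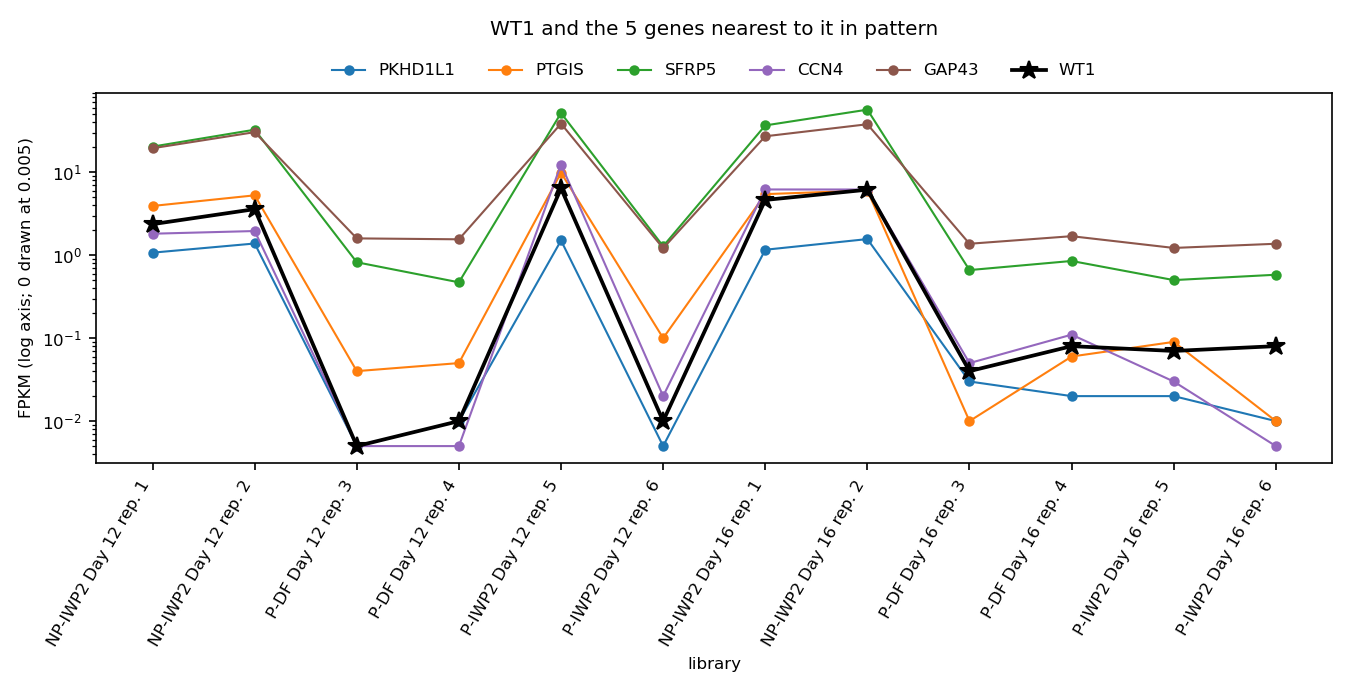
FPKM (log axis, 0 drawn at 0.005) of WT1 (black stars) and of the 5 genes nearest to it in pattern in each of the 12 libraries. All 6 genes are high in the 4 static libraries and in Day 12 P-IWP2 replicate 5 and low in the other 7, where WT1 is at most 0.08 FPKM.

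Some members share their locus with an antisense gene, and the strand setting of the counting is not given in the sources used here, so reads of the partners may not be told apart where they overlap. WT1 spans chromosome 11 from 32387775 to 32435564 on the minus strand (hg38), and WT1-AS overlaps it over 47 bases. WT1-AS had 55 and 75 counts in Day 12 NP-IWP2, 92 and 134 on Day 16, 100 in replicate 5 and 0 in the other 7 passaged libraries. TCF21 spans chromosome 6 from 133889113 to 133895553 on the plus strand and shares 3690 bases with TARID, an antisense RNA. TARID had 98 to 210 counts in the static libraries, 423 in replicate 5 and 2 to 9 in the others. TBX18, on chromosome 6 from 84687351 to 84764598 on the minus strand, shares 21867 bases with TBX18-AS1, which had at most 25 counts. BNC1 shares 28781 bases with a gene without a symbol on the opposite strand, which had at most 4 counts in any library. On the same strand as UPK1B, a gene without a symbol shares 14291 bases and had 0 counts throughout. SEMA3D shares 1865 bases with HSPA8P16 on the opposite strand, which had at most 3 counts. The related genes UPK3BL1 and ITLN2 had at most 3 and 11 counts.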

How the data were processed

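Bulk RNA of 12 libraries was sequenced. Per the labels, reads were trimmed with cutadapt 1.9.1, aligned to hg38 with HISAT2 2.0.1 and counted per gene with HTSeq 0.6.1, and the submitters' processing notes also name DESeq2. The authors deposited raw counts and FPKM values per gene, and the FPKM were used as deposited. A gene length column was read only to describe the table.

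Counts were tested with edgeR 4.0.16 (R 4.3.3) by the quasi-likelihood test with TMM factors, after filterByExpr over the 6 groups, which left 19505 of 61806 genes. A gene could pass this filter through a single group in which it was high, members and list genes included. Day contrasts and interactions came from 1 model of all 12 libraries, and comparisons over both days from the 8 libraries of 2 treatments with day as a term. P-values were adjusted over all genes by Benjamini-Hochberg with a threshold of 0.05. SE is the log2 fold change divided by the square root of the F statistic. The fits were checked on simulated counts. Alternatives were other scalings, no filter, DESeq2 1.42.0, other library sets, a replicate block and leaving out each library. Folds against a group at 0 use 3 counts over the group as the limit, and intervals and limits cover counting error only.

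The members and gene lists were chosen with earlier results of these data known. Named genes were all members, the genes overlapping them, up to 3 genes of each list by mean FPKM with called genes first, TNNT2, NKX2-5 and AFP, and the 5 genes nearest to WT1. The nearest genes used log2(CPM + 1). One podocyte marker and the sum of its list are not reported here.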

Additional observations from a re-analysis of the deposited data

Results flagged for a closer look

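For some members the difference between passaged and static cells had opposite directions on the 2 days, in all libraries compared, or differed between the days by the interaction test once Day 12 P-IWP2 replicate 5 was left out. The share of all genes with such opposite directions was not counted. In the interaction test without that library, 7.62% of all genes were called for P-DF and 7.89% for P-IWP2. The values below are the change of the log2 fold change from Day 12 to Day 16, by edgeR's quasi-likelihood test.

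In P-DF against NP-IWP2, all 3 were higher than static on Day 12 and lower on Day 16. LRRN4 had a value of -1.49 ± 0.370 (SE, adjusted p = 0.132), and -1.49 without replicate 5 (adjusted p = 0.00153). SEMA3D had -1.42 ± 0.812 (adjusted p = 0.517), and -1.42 without it (adjusted p = 0.00845). UPK1B had -10.22 ± 3.21 (adjusted p = 0.241), and -10.20 without it (adjusted p = 0.00856), on 14 and 0 counts in P-DF and 1 and 24 in NP-IWP2, so that this fitted value is no bound. On Day 16 alone its level was at least 7.76-fold lower in P-DF, with 3 counts over the group taken as the limit.

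In P-IWP2 against NP-IWP2, SEMA3D had -2.99 ± 0.821 (adjusted p = 0.0905), and -1.38 without replicate 5 (adjusted p = 0.0151). UPK1B had -8.85 ± 2.39 (adjusted p = 0.0946), and -5.10 without it (adjusted p = 0.195). BNC1, which was below the static cells on both days, had -4.16 ± 1.14 (adjusted p = 0.0899), and -1.63 without it (adjusted p = 0.0345).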

How the results depend on the processing

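The number of members called depended on the settings. For P-DF against NP-IWP2 on Day 12 it was 7 without the filter, 4 with DESeq2 and 8 with only the groups compared, and for P-IWP2 6, 2 and 0. The shares of all genes called moved as well, to 7.70%, 8.22% and 28.1% for P-DF and to 3.79%, 3.26% and 0.0% for P-IWP2. For P-IWP2 on Day 16 it was 8 without the filter (12.3% of genes). Over both days the third setting was instead 1 model of all 12 libraries in 6 groups. With it, as without the filter and with DESeq2, 2 members were called for P-IWP2 (11%, 3.73% and 7.63% of genes). For P-IWP2 against P-DF it was 4 without the filter (2.45%). Between the days it was 5 without the filter, 7 with only the groups compared and 1 with the replicate block in NP-IWP2 (5.07%, 26.0% and 0.790% of genes), 5 and 5 with the first 2 of these in P-DF (9.50% and 32.2%), and 7 with total counts and 0 with only the groups compared in P-IWP2 (37.8% and 0.0%). For the interactions it was 3, 1 and 3 for P-DF (without the filter, DESeq2, only the groups compared; 2.79%, 2.57% and 12.2% of genes), and 6, 4 and 2 for P-IWP2 (without the filter, DESeq2, replicate block; 6.77%, 7.31% and 1.99%). Leaving out 1 library at a time gave 0 to 7 and 1 to 8 for P-DF on Days 12 and 16, 1 to 7 and 2 to 8 for P-IWP2, 5 to 6, 1 to 5 and 0 to 1 over both days, 0 to 4, 0 to 5 and 0 to 7 between the days, and 0 to 3 and 0 to 7 for the interactions. Such fits also hold fewer libraries, and the cause of these changes was not tested.

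The replicate numbers recur on both days, and the labels do not say whether they pair the libraries. The deviations of same-numbered libraries correlated at 0.197, 0.00092 and -0.0534 in NP-IWP2, P-DF and P-IWP2. With 2 libraries a day in each treatment, these values cannot settle whether the libraries were paired. With the replicate block, TCF21 was called between the days in NP-IWP2, and TCF21 and TBX18 in the P-IWP2 interaction. The P-DF calls stayed at 1 and 0 and the P-IWP2 calls between days at 4.

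Over 86 fold changes of single members, 1088 of 1310 recomputed values kept their direction and their side of the threshold, 88 lost the call and 98 gained it. Signs turned in the other 36. For WT1 on Day 12 P-IWP2 they were 0.10 with total counts, 0.0076 with only the groups compared, and -8.37 to 0.96 with 1 library left out. TCF21 and TBX18 spanned -7.32 to 2.61 and -8.53 to 1.65. WT1 between days in P-IWP2 spanned -5.83 to 3.50. LRRN4 in P-IWP2 was at -0.10 on Day 16 and -0.27 between the days with total counts, and with 1 library left out it ranged from -0.52 to 0.31 on Day 12, -0.071 to 0.40 on Day 16 and -0.23 to 0.61 between the days. LRRN4 between the days in NP-IWP2 ranged from -0.21 to 0.021. Over both days, with 1 library left out, P-IWP2 against P-DF ranged from -1.37 to 8.37 for TCF21, -0.41 to 9.32 for TBX18, -0.37 to 2.09 for BNC1 and -0.67 to 2.85 for UPK1B. Against NP-IWP2, P-IWP2 ranged from -10.53 to 0.034 for TCF21, -2.01 to 2.31 for UPK1B, -0.084 to 0.23 for LRRN4 and -0.038 to 1.40 for SEMA3D, and LRRN4 was at -0.073 with total counts. P-DF ranged from -1.24 to 0.41 for UPK1B and -0.32 to 0.22 for SEMA3D. The depth of each library sets a limit of 0.156 to 0.202 CPM for 3 counts.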
